A study of Xenopus laevis with 8 samples.

Results

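Of the 35649 genes counted in Xenopus laevis gastrula explants, 87 belonged to the Wnt pathway set described here. They were chosen by symbol: every wnt, fzd, sfrp, dkk, nkd, axin and dvl gene with a number or family ending, together with frzb, notum, rnf43, znrf3, lef1, tcf7, tcf7l1, tcf7l2, apcdd1, lrp5 and lrp6. The symbol rule takes no measured value, but it was set with earlier results of these data known. The set held 30 ligand genes, 20 receptor genes, 15 antagonist genes and 14 feedback targets, the 4 groups that were compared, and 8 transducers (dvl, axin1, tcf7l1 and tcf7l2) that stand outside them. X. laevis is allotetraploid, so most genes have an L and an S copy, called homeologs, and each copy was a gene of its own in these counts. A total of 34 members were found through an NCBI LOC identifier. In 10 members the symbol was carried by another row too, so that the reads of these near-identical rows may have been split in counting.

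Wnt proteins are lipid-modified secreted signals that bind Frizzled receptors and the co-receptors Lrp5 and Lrp6. In the canonical branch this stops the degradation of beta-catenin, which then acts with Lef and Tcf factors on target genes, several of which encode inhibitors of the pathway itself. In the frog gastrula, Wnt8a from the ventral and lateral marginal zone patterns mesoderm and posterior neural tissue against antagonists from the organizer, while Wnt11b and Wnt5 ligands act on cell movement through the planar cell polarity branch.

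The study raised the secreted factor Pinhead in prospective ectoderm and lowered it in the marginal zone, the ring of tissue that forms mesoderm. Ectoderm explants received 1.5 ng of Flag-Pinhead RNA (2 samples) or no treatment (2 samples), with the label stage 11. Marginal zone explants came from embryos given 40 ng of PhSpMo, the oligo used to deplete Pinhead, in each blastomere at the 4-cell stage (2 samples), or from untreated embryos (2 samples). Their label is stage 10.5, whereas the text of the series gives stage 11. The labels name no strain or genetic change, and neither control was injected, so an effect of injection and an effect of the injected molecule cannot be told apart.

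Total counts per sample ran between 12551618 and 19719311. The L copy of pinhead, pnhd.L, had 34439 and 64563 CPM (read counts scaled to normalized library size) in Flag-Pinhead ectoderm, against 16 and 18.3 CPM in control ectoderm. In the marginal zone pnhd.L had 54.1 and 50.6 CPM with PhSpMo, against 90.9 and 86.1 CPM in controls, and pnhd.S had 31.4 and 35.3 CPM with PhSpMo, against 77.4 and 80.7 CPM in controls. The 2 PhSpMo samples differed by less than the 2 samples of a control group did (mean chi-square per gene 1.43, against 2.05 to 2.27). They were counted as 1 sample in the tests below, apart from alternatives that kept them separate. The columns within each PhSpMo sample differed more than the samples did (2.38 and 2.44), so column names may be crossed, and the values printed for PhSpMo samples 1 and 2 may each be a mixture of both. These values have no SD. The labels do not say whether samples of 1 group came from different clutches. The spread behind each p-value is therefore that between the samples at hand and may be a technical one. PhSpMo, counted as 1 sample, adds nothing to that spread. Its p-values rest on the spread within the other groups, Flag-Pinhead ectoderm included.

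The explants were also checked against marker lists, which were chosen with earlier results of these data known. The 17 mesoderm genes (t, vegt, eomes, mix1 and others) summed to 689 and 732 CPM in Flag-Pinhead ectoderm, against 32.3 and 34.7 CPM in control ectoderm, where msgn1.L and msgn1.S had no count. They summed to 2252 and 2347 CPM in PhSpMo marginal zone, against 2976 and 2792 CPM in control marginal zone. The sum in Flag-Pinhead ectoderm was uneven over the list. There vegt.L had 211 and 227 CPM, vegt.S 260 and 299 CPM, and t.L 143 and 116 CPM. By contrast mix1.L had 2.65 and 2.48 CPM, against 210 and 189 CPM in control marginal zone. For eomes.S these values were 9.88 and 15.2 CPM, against 211 and 203 CPM. The 22 epidermis genes summed to 2519 and 2278 CPM in Flag-Pinhead ectoderm, against 4100 and 4201 CPM in control ectoderm. They summed to 2002 and 1990 CPM in PhSpMo marginal zone, against 2645 and 2579 CPM in control marginal zone, so RNA of this list was present there too. The sum does not show epidermal tissue, since the genes differed. In control marginal zone foxi4.2.S had 258 and 251 CPM, against 202 and 194 CPM in control ectoderm. The keratin gene krt12.L had 33.6 and 33.8 CPM, against 216 and 255 CPM. In Flag-Pinhead ectoderm krt12.L had 240 and 181 CPM, so not every gene of the list shared the lower sum there. For tfap2a.L the values were 209 and 207 CPM in Flag-Pinhead ectoderm, against 539 and 528 CPM in control ectoderm. Of 20 tested genes of the list, 2 were higher and 15 lower in control marginal zone than in control ectoderm. Over all genes tested, 26.5% were higher and 26.3% lower in that comparison. The 15 endoderm genes were low in ectoderm, at 14.4 and 17.8 CPM with Flag-Pinhead RNA against 8.58 and 6.21 CPM in controls. With Flag-Pinhead RNA 2 of them rose and none fell, where 15.5% of all genes tested rose and 11.9% fell. The median log2 fold change of the list was 0.97, where all genes had 0.00. In the marginal zone the endoderm genes summed to 227 and 219 CPM with PhSpMo against 392 and 391 CPM in controls.

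Of the 87 members, 61 had enough counts to be tested. All 20 receptors, all 14 feedback targets and all 8 transducers were among them, with 12 of 15 antagonists but only 7 of 30 ligands. The 23 ligand rows left out had between 0 and 35 counts over all samples together, as did dkk3.L, sfrp5.L and sfrp5.S, and 4 members had no count at all. A gene could pass this filter through the group in which it was high, so the counts of tested members below describe the set and are not evidence for it. Most of the untested ligand genes were near 0 in every group. Both wnt3a.L rows were among them, one with 0 counts in Flag-Pinhead ectoderm and 3 in control ectoderm, the other with 1 and 0 counts in the same order. Among those with more counts, wnt10b.L had 10 counts in Flag-Pinhead ectoderm, 23 in control ectoderm, 0 in PhSpMo marginal zone and 2 in control marginal zone. wnt16.S had 10 counts in Flag-Pinhead ectoderm, 9 of them in sample 1, and none in control ectoderm. It had 6 counts in PhSpMo marginal zone and 9 in control marginal zone.

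With Flag-Pinhead RNA, 20 of the 61 tested members rose and 9 fell in ectoderm (edgeR quasi-likelihood test, adjusted p under 0.05 over all 22241 genes tested). That is 32.8% and 14.8% of the members, where 15.5% of all genes tested rose, 11.9% fell and 27.4% were called in either direction. By role, 5 of 7 ligands, 4 of 20 receptors, 6 of 12 antagonists and 5 of 14 feedback targets rose, and 0, 4, 2 and 1 fell. The median log2 fold change was 2.98 for ligands, -0.01 for receptors, 0.44 for antagonists and 0.45 for feedback targets, where all genes had a median of 0.00. Among the transducers none rose and 2 of 8 fell. The ligand shares and medians, here and below, count rows. The 5 ligand rows that rose include both copies of wnt8a and 2 rows annotated as wnt5b.L, so they are not 5 independent genes.

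With PhSpMo, 2 members rose and 16 fell in the marginal zone, that is 3.28% and 26.2% of those tested, where 8.22% of all genes rose, 10.5% fell and 18.7% were called in either direction. The members that fell were 5 of 7 ligands, 6 of 20 receptors, 2 of 12 antagonists, 2 of 14 feedback targets and 1 of 8 transducers. The median log2 fold change was -0.65 for ligands, -0.28 for receptors, -0.10 for antagonists and -0.34 for feedback targets. The antagonist median was -0.15 without dkk2.L and dkk2.S, which had too few counts for a fold in the marginal zone. Both members that rose were receptors, fzd3.L and fzd4.L, and neither call held when DESeq2 was used. With library totals in place of TMM scaling, 6 members rose and 15 fell, so that 28.6% of the calls were rises in place of 11.1%.

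**Figure D1:**
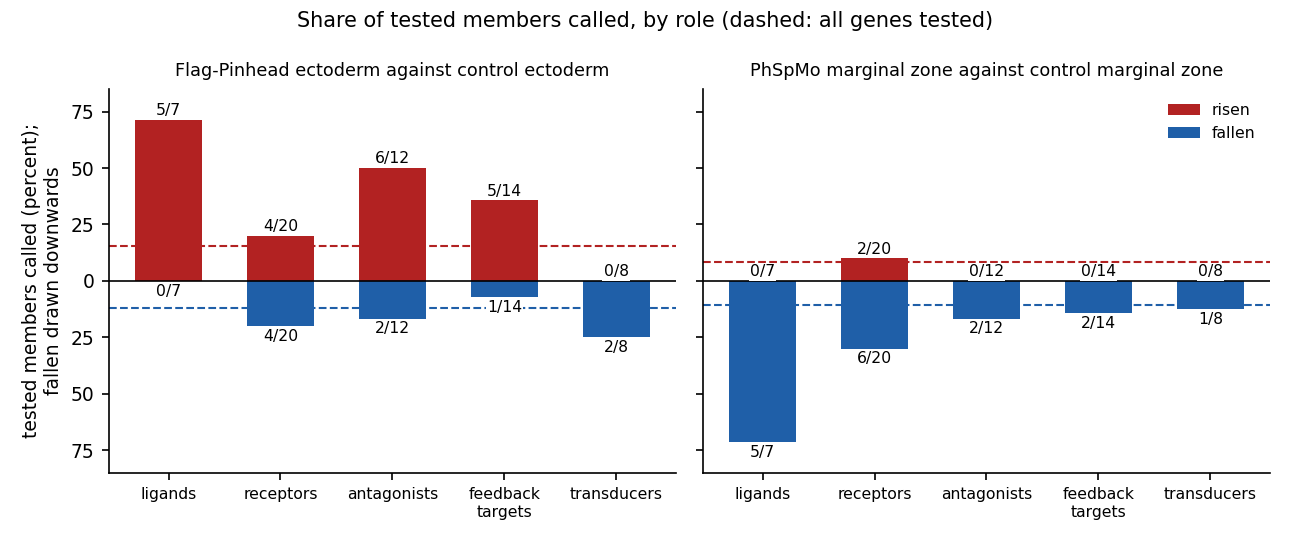
Percent of tested members called higher (red, upwards) or lower (blue, downwards) by role, for Flag-Pinhead against control ectoderm (left) and PhSpMo against control marginal zone (right), with the number called and tested at each bar. Dashed lines are the percent of all 22241 genes called in that direction. Among ligands, counted as rows and not as independent genes, 5 of 7 rose on the left and 5 of 7 fell on the right.

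The 5 ligand genes that rose with Flag-Pinhead RNA and the 5 that fell with PhSpMo were the same: wnt8a.L, wnt8a.S, wnt11b.L and the 2 rows annotated as wnt5b.L. wnt8a encodes the canonical Wnt of the ventrolateral marginal zone. wnt8a.L had 38.7 and 29.2 CPM in Flag-Pinhead ectoderm, against 1.16 and 1.08 CPM in control ectoderm. It was thus 30.1-fold higher, a log2 fold change of 4.91 ± 0.17 (SE, n = 2 each, edgeR adjusted p = 8.17e-18). The SE values here and below come from the fit over all groups. In the marginal zone wnt8a.L had 46.5 and 43 CPM with PhSpMo, against 111 and 113 CPM in controls, a log2 fold change of -1.33 ± 0.10 (SE, edgeR adjusted p = 6.01e-10). The Flag-Pinhead ectoderm samples lay below the level of the control marginal zone.

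The S copy moved the same way from a lower count. wnt8a.S had 274 counts in the 2 Flag-Pinhead ectoderm samples together and 2 counts in control ectoderm, a ratio of 166 with a 95% interval of 45.4 to 1375. This interval, like the others given on counts, uses library totals and covers counting error only. Per sample the values were 11.6 and 7.58 CPM with Flag-Pinhead RNA, against 0.101 and 0 CPM in controls (edgeR adjusted p = 3.9e-13). With PhSpMo wnt8a.S had 8.71 and 9.37 CPM, against 29.5 and 31.3 CPM in control marginal zone, a log2 fold change of -1.75 ± 0.18 (SE, edgeR adjusted p = 7.82e-08). The copies of wnt8a were not called different from each other in either treatment (edgeR adjusted p = 0.0983 with Flag-Pinhead RNA and 0.332 with PhSpMo).

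wnt11b encodes the Wnt11 ligand of the dorsal side and the early mesoderm, which drives convergent extension. wnt11b.L had 415 and 282 CPM in Flag-Pinhead ectoderm, against 11.4 and 10.2 CPM in control ectoderm (log2 fold change 5.01 ± 0.13 SE, edgeR adjusted p = 2.39e-20). The level in Flag-Pinhead ectoderm was above that of every marginal zone sample, since wnt11b.L had 102 and 100 CPM with PhSpMo and 140 and 148 CPM in control marginal zone. The fall with PhSpMo was a log2 fold change of -0.51 ± 0.12 (SE, edgeR adjusted p = 0.00392). That call was lost with DESeq2, with a robust estimate of spread and without control marginal zone sample 2 (highest adjusted p = 0.379), while the fold change stayed between -0.55 and -0.44. An S row of wnt11b was not analysed here.

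wnt5b encodes another ligand of the planar cell polarity branch, and its L copy is named by 2 rows. The row wnt5b.L had 90.2 and 67 CPM in Flag-Pinhead ectoderm, against 12 and 15.4 CPM in control ectoderm, a 5.76-fold rise (log2 2.53 ± 0.12 SE, edgeR adjusted p = 4.29e-15). The row LOC108704582, which NCBI names wnt5b.L, had 56.5 and 40 CPM with Flag-Pinhead RNA, against 5.6 and 6.67 CPM in controls, a 7.89-fold rise (log2 2.98 ± 0.14 SE, edgeR adjusted p = 4.36e-15). In Flag-Pinhead ectoderm both rows lay above the control marginal zone. There wnt5b.L had 29.4 and 29.3 CPM with PhSpMo, against 48.2 and 44.3 CPM in controls (log2 fold change -0.65 ± 0.13 SE, edgeR adjusted p = 0.00075). LOC108704582 had 20.7 and 22.3 CPM with PhSpMo, against 35.8 and 37.7 CPM in controls (log2 fold change -0.77 ± 0.14 SE, edgeR adjusted p = 0.000263). The fall of wnt5b.L was not called with DESeq2 or a robust estimate of spread (highest adjusted p = 0.122), whereas that of LOC108704582 held in all 18 alternatives. How far these rows share reads is not known, and the RefSeq table gives one of the names as an older synonym of the S copy, so they should not be read as 2 independent genes.

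The other tested ligands, wnt5a.S and wnt9b.2.L, were called in neither treatment. wnt5a.S had 0.626 and 2.27 CPM in Flag-Pinhead ectoderm, against 1.51 and 1.08 CPM in control ectoderm, and 2.26 and 2.36 CPM with PhSpMo, against 1.62 and 2.51 CPM in control marginal zone. wnt9b.2.L had 14 counts in Flag-Pinhead ectoderm and 4 in control ectoderm, a ratio of 4.23 with a 95% interval of 1.33 to 17.7 (edgeR adjusted p = 0.0906).

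**Figure D2:**
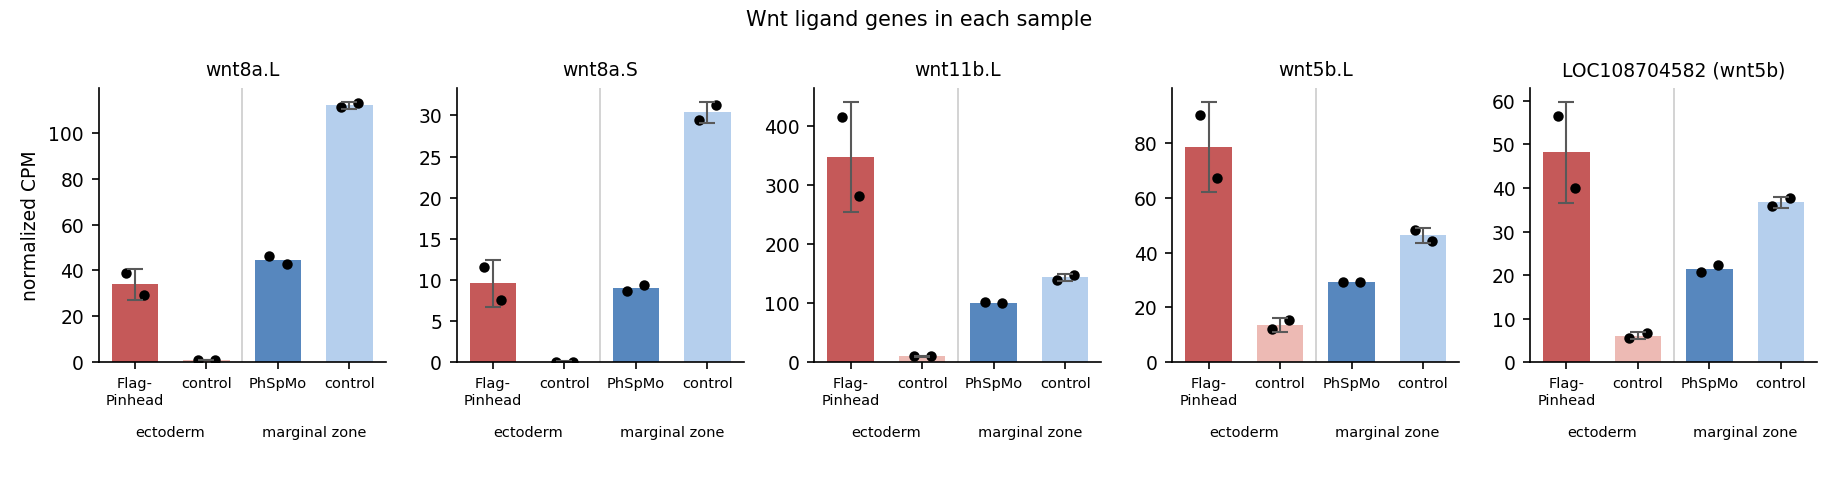
Normalized CPM of the 5 ligand rows called in both treatments, with 1 point per sample, bars for the group mean and error bars for the SD (n = 2; none for PhSpMo, counted as 1 sample). In each panel Flag-Pinhead ectoderm stands above control ectoderm and PhSpMo marginal zone below control marginal zone.

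The ligand rise went with the mesoderm list, of which 15 of 16 tested genes rose and none fell with Flag-Pinhead RNA, and with the epidermis list, of which 2 rose and 16 of 20 fell. With PhSpMo 10 of 16 mesoderm genes, 11 of 15 endoderm genes and 14 of 20 epidermis genes fell. Over all genes tested, 15.5% rose and 11.9% fell with Flag-Pinhead RNA, and 8.22% rose and 10.5% fell with PhSpMo. Of 18 organizer genes, 12 rose with Flag-Pinhead RNA and 8 fell with PhSpMo, summing to 151 and 131 CPM in Flag-Pinhead ectoderm against 21.4 and 20.3 CPM in control ectoderm, and to 364 and 371 CPM with PhSpMo against 456 and 473 CPM in control marginal zone. Of 10 tested neural plate genes, 8 rose with Flag-Pinhead RNA and 7 fell with PhSpMo. The neural plate list summed to 1508 and 1415 CPM in Flag-Pinhead ectoderm against 760 and 782 CPM in control ectoderm, and to 1132 and 1177 CPM with PhSpMo against 1207 and 1258 CPM in control marginal zone. The part of these changes in marker levels in the Wnt results was not tested, and in such bulk samples fewer cells of a type and less RNA per cell cannot be told apart.

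Among receptors, both copies of fzd10 and the L copy of fzd7 rose with Flag-Pinhead RNA and fell with PhSpMo. fzd10.L, which encodes a Frizzled receptor, had 76.9 and 71.6 CPM in Flag-Pinhead ectoderm, against 21 and 23 CPM in control ectoderm (log2 fold change 1.75 ± 0.09 SE, edgeR adjusted p = 5.83e-15). It had 16.7 and 16.4 CPM with PhSpMo, against 38.4 and 40.8 CPM in control marginal zone (log2 fold change -1.26 ± 0.11 SE, edgeR adjusted p = 2.56e-09). Both PhSpMo samples were therefore also below the control ectoderm samples. fzd10.S had 37 and 32.3 CPM in Flag-Pinhead ectoderm, against 10.6 and 13.4 CPM in control ectoderm (edgeR adjusted p = 1.85e-10). With PhSpMo fzd10.S had 6.65 and 6.06 CPM, against 14.1 and 14.6 CPM in controls (edgeR adjusted p = 9.31e-06). The changes of the 2 copies were close, with log2 fold changes of 1.75 and 1.53 in ectoderm and of -1.26 and -1.18 in the marginal zone.

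fzd7 encodes a receptor used by both branches of the pathway in the gastrula. fzd7.L had 769 and 852 CPM in Flag-Pinhead ectoderm, against 563 and 582 CPM in control ectoderm, a 1.42-fold rise (edgeR adjusted p = 2.01e-08). fzd7.S had 103 and 114 CPM with Flag-Pinhead RNA, against 91.3 and 102 CPM in controls, which was not called (edgeR adjusted p = 0.0558). In the marginal zone it was the S copy that had the larger change. fzd7.S had 305 and 300 CPM with PhSpMo, against 438 and 425 CPM in controls, a log2 fold change of -0.51 ± 0.07 (SE, edgeR adjusted p = 6.8e-06). fzd7.L had 895 and 907 CPM with PhSpMo, against 1048 and 1032 CPM in controls, a log2 fold change of -0.21 ± 0.06 (SE, edgeR adjusted p = 0.0204). The call on fzd7.L was lost with library totals and when any 1 of several libraries was left out (highest adjusted p = 0.161), and the copies were not called different with PhSpMo (edgeR adjusted p = 0.067).

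The receptor fzd8, known from the organizer, was called through a different copy in each tissue. fzd8.L had 2.85 and 4.04 CPM in Flag-Pinhead ectoderm, against 5.95 and 6.55 CPM in control ectoderm (log2 fold change -0.86 ± 0.21 SE, edgeR adjusted p = 0.00288), a call that missed the threshold without Flag-Pinhead sample 1 (adjusted p = 0.0535). fzd8.S had 26.1 and 22.7 CPM with Flag-Pinhead RNA, against 22.6 and 24.3 CPM in controls, and these groups overlapped. With PhSpMo fzd8.S had 6.58 and 8.42 CPM, against 14.5 and 15 CPM in control marginal zone (log2 fold change -0.98 ± 0.15 SE, edgeR adjusted p = 3.16e-05). There fzd8.L was lower too but not called, at 6.71 and 7.65 CPM with PhSpMo against 11.4 and 9.09 CPM in controls (edgeR adjusted p = 0.0913). The copies of fzd8 were not called different with PhSpMo (edgeR adjusted p = 0.299).

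Another receptor gene, fzd4.L, was lower with Flag-Pinhead RNA and higher with PhSpMo, the only member called in that pair of directions. It had 2.23 and 5.38 CPM in Flag-Pinhead ectoderm, against 6.31 and 7.46 CPM in control ectoderm (edgeR adjusted p = 0.00934), with sample 1 well below sample 2. It had 13.4 and 12.1 CPM with PhSpMo, against 8.11 and 7.09 CPM in controls (edgeR adjusted p = 0.0215). Neither call was stable: that in ectoderm was lost with DESeq2, without control ectoderm sample 2 and without Flag-Pinhead sample 1 (highest adjusted p = 0.274), and that in the marginal zone was lost in 5 of 18 alternatives (highest adjusted p = 0.229). fzd6.L was lower in both treatments, with log2 fold changes of -0.36 ± 0.12 (SE) in ectoderm and -0.67 ± 0.14 (SE) in the marginal zone (edgeR adjusted p = 0.0252 and 0.00102). Its calls were lost in 4 of the 18 alternatives in ectoderm, and without control marginal zone sample 2 in the marginal zone (adjusted p = 0.0751). fzd6.S, by contrast, had 8.07 and 5.59 CPM with Flag-Pinhead RNA, against 3.73 and 3.25 CPM in control ectoderm (edgeR adjusted p = 0.00139).

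fzd3.S fell with Flag-Pinhead RNA, at 13.2 and 13 CPM against 19.1 and 16.7 CPM in control ectoderm (edgeR adjusted p = 0.0082, lost with DESeq2 and without control ectoderm sample 1, highest adjusted p = 0.147). fzd3.L rose with PhSpMo, at 16.5 and 16.4 CPM against 13.3 and 11 CPM in control marginal zone (edgeR adjusted p = 0.0454, lost in 7 of 18 alternatives). The co-receptors were called in neither treatment. lrp6.L had 131 and 145 CPM in Flag-Pinhead ectoderm, against 134 and 139 CPM in control ectoderm, a log2 fold change of 0.02 ± 0.06 (SE), and it had 226 and 215 CPM with PhSpMo, against 203 and 199 CPM in control marginal zone, 0.13 ± 0.07 (SE). lrp5.L had log2 fold changes of 0.16 ± 0.13 (SE) in ectoderm and 0.12 ± 0.17 (SE) in the marginal zone.

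**Figure D3:**
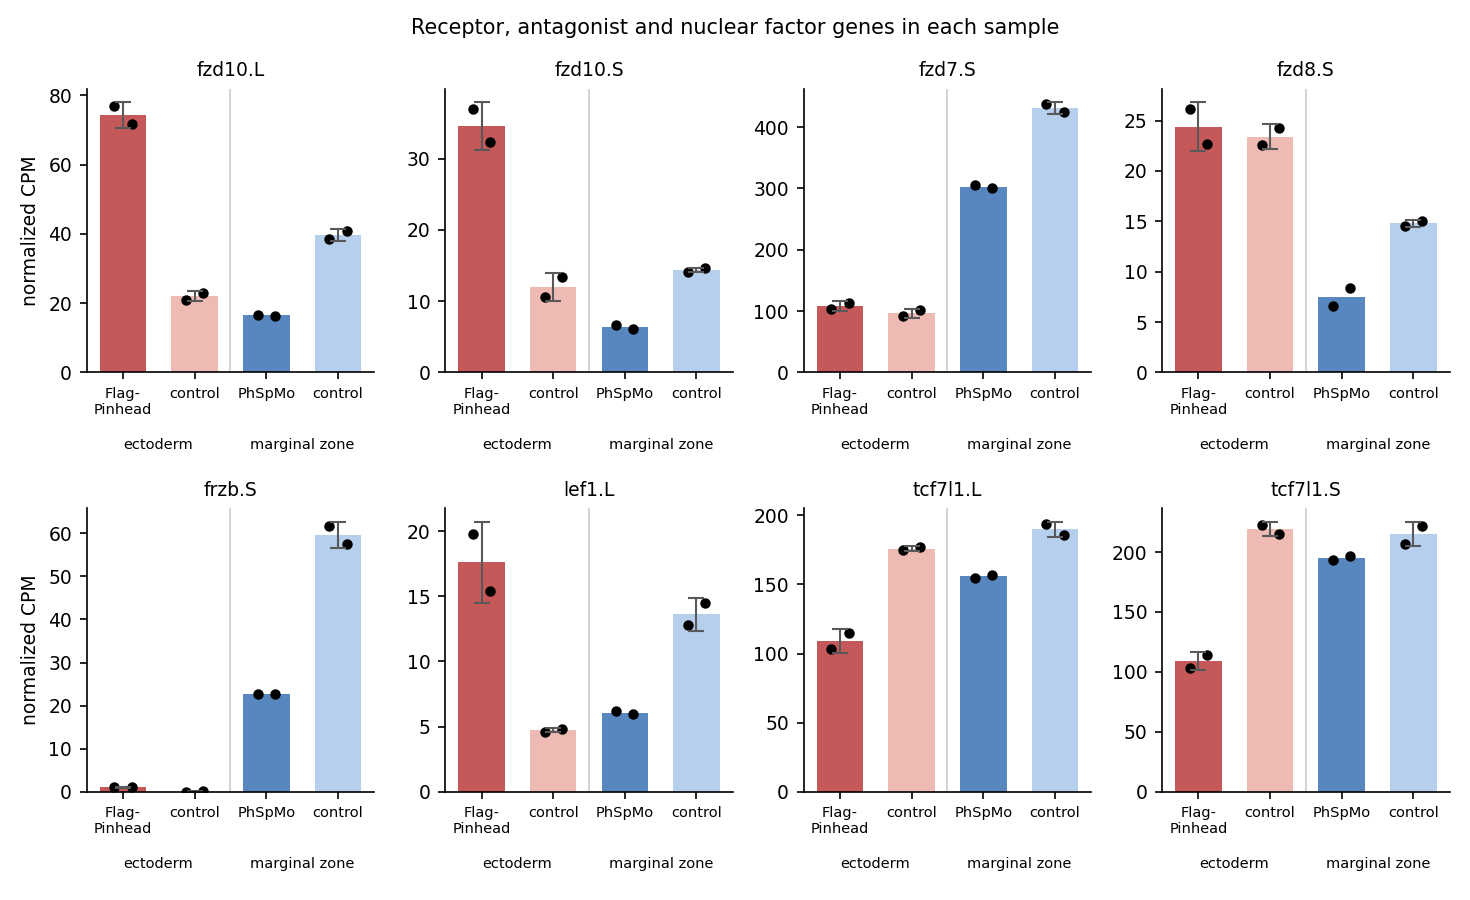
Normalized CPM of 4 receptor genes, frzb.S, lef1.L and both copies of tcf7l1, with 1 point per sample, bars for the group mean and error bars for the SD (n = 2; none for PhSpMo, counted as 1 sample). Both fzd10 copies and lef1.L are higher with Flag-Pinhead RNA and lower with PhSpMo than in their controls, fzd8.S differs in the marginal zone, and both tcf7l1 copies are lower in Flag-Pinhead ectoderm.

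The antagonists were mixed. frzb encodes a secreted Frizzled-related protein of the organizer that binds Wnt8. frzb.S had 1.11 and 0.991 CPM in Flag-Pinhead ectoderm, against 0 and 0.057 CPM in control ectoderm, that is 30 counts and 1 count, a ratio of 36.3 with a 95% interval of 6.03 to 1481 (edgeR adjusted p = 5.33e-06). In the marginal zone it had 22.7 and 22.7 CPM with PhSpMo, against 61.8 and 57.6 CPM in controls, 2.63-fold higher in control marginal zone (log2 fold change -1.39 ± 0.12 SE, edgeR adjusted p = 5.32e-09). The rise in ectoderm was large as a ratio but left frzb.S far below either marginal zone group. A row named frzb-1, an older name of frzb that the symbol rule does not take, had 0.557 and 0.567 CPM in Flag-Pinhead ectoderm, against 0 and 0 CPM in control ectoderm, and 3.81 and 3.83 CPM with PhSpMo, against 6.03 and 7.54 CPM in control marginal zone.

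Of the 7 other tested secreted Frizzled-related genes, 4 rose and 1 fell in ectoderm, and 1 fell in the marginal zone. sfrp1.L had 0.835 and 1.27 CPM in Flag-Pinhead ectoderm, against 0.101 and 0.114 CPM in control ectoderm, that is 30 and 4 counts (edgeR adjusted p = 0.00214). sfrpx.L had 3.06 and 3.68 CPM with Flag-Pinhead RNA, against 0.404 and 0.627 CPM in controls (log2 fold change 2.71 ± 0.43 SE, edgeR adjusted p = 1.77e-05). Both L rows could pass the filter through Flag-Pinhead ectoderm, where they were high. Their calls thus describe the rows and are not evidence for a change. For both genes the log2 fold change of the S copy was smaller. It was 0.46 ± 0.13 for sfrpx.S (SE, edgeR adjusted p = 0.00848, lost with DESeq2 and without control ectoderm sample 1, highest adjusted p = 0.183). sfrp1.S was not called in ectoderm, at 2.09 and 1.91 CPM against 1.67 and 0.798 CPM in controls. It was, however, the second antagonist that fell with PhSpMo, at 1.29 and 1.15 CPM against 2.94 and 3.55 CPM in control marginal zone (edgeR adjusted p = 0.013, lost with DESeq2 and without control marginal zone sample 2, highest adjusted p = 0.122).

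sfrp4.L was called in neither treatment. The copies of sfrp2 were called in opposite directions in ectoderm. sfrp2.L had 23.7 and 26.1 CPM in Flag-Pinhead ectoderm, against 32.4 and 36.3 CPM in control ectoderm (log2 fold change -0.46 ± 0.10 SE, edgeR adjusted p = 0.000735). sfrp2.S had 106 and 111 CPM with Flag-Pinhead RNA, against 76.6 and 85.2 CPM in controls (log2 fold change 0.43 ± 0.07 SE, edgeR adjusted p = 2.56e-05). Both calls held in all 18 alternatives, and neither copy was called with PhSpMo.

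The Dickkopf genes, whose products block Lrp5 and Lrp6 or modulate them, were counted only sparsely. dkk2.L had no count in Flag-Pinhead ectoderm and 32 counts in control ectoderm, so it was at least 8.82-fold lower, with a floor of 3 counts over the group (edgeR adjusted p = 0.00114). dkk2.S had the opposite pattern, with 29 counts in Flag-Pinhead ectoderm and 3 in control ectoderm, a ratio of 11.7 with a 95% interval of 3.62 to 60 (edgeR adjusted p = 0.00239, and 0.0502 with DESeq2). Each dkk2 row could pass the filter through the group in which it was high. These 2 calls thus describe the rows and are not evidence for a change. In the marginal zone dkk2.L had 2 counts with PhSpMo and 2 in controls, and dkk2.S had 1 count with PhSpMo and none in controls. dkk1.L, from the organizer antagonist gene, had 3 counts in Flag-Pinhead ectoderm and 4 in control ectoderm, and 30 counts with PhSpMo against 32 in control marginal zone. dkk1.S had 2 counts with Flag-Pinhead RNA and 8 in control ectoderm, and 15 counts with PhSpMo against 31 in control marginal zone. None of the Dickkopf rows was called with PhSpMo. For dkk1.S the ratio was 0.465 with a 95% counting interval of 0.233 to 0.887 (edgeR adjusted p = 0.304).

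Feedback targets split by gene. lef1, which encodes a beta-catenin partner and is itself a target, was the one called in both treatments. lef1.L had 19.8 and 15.4 CPM in Flag-Pinhead ectoderm, against 4.59 and 4.84 CPM in control ectoderm (log2 fold change 1.90 ± 0.16 SE, edgeR adjusted p = 5.36e-10). It had 6.2 and 5.93 CPM with PhSpMo, against 12.8 and 14.5 CPM in control marginal zone (log2 fold change -1.17 ± 0.18 SE, edgeR adjusted p = 3.57e-05). A row named lef1 without an ending had fewer counts and no call, at 1.6 and 0.991 CPM in Flag-Pinhead ectoderm against 1.61 and 1.82 CPM in control ectoderm, and 0.452 and 0.51 CPM with PhSpMo against 1.39 and 1.1 CPM in control marginal zone. tcf7.S, from another beta-catenin partner gene, had 51.5 and 51.4 CPM with Flag-Pinhead RNA, against 29.2 and 31.8 CPM in control ectoderm (log2 fold change 0.76 ± 0.08 SE, edgeR adjusted p = 6.02e-08). With PhSpMo tcf7.S had 35.2 and 35.8 CPM, against 31.8 and 31.8 CPM in controls, and was not called (edgeR adjusted p = 0.314).

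rnf43 and znrf3 encode membrane ubiquitin ligases that remove Frizzled receptors from the cell surface. rnf43.S had 7.03 and 8.07 CPM in Flag-Pinhead ectoderm, against 3.33 and 3.65 CPM in control ectoderm (log2 fold change 1.11 ± 0.22 SE, edgeR adjusted p = 0.000266). rnf43.L had 4.66 and 5.81 CPM with Flag-Pinhead RNA, against 2.67 and 3.59 CPM in controls (edgeR adjusted p = 0.037, lost in 5 of 18 alternatives, highest adjusted p = 0.319). znrf3.L had 9.47 and 7.15 CPM with Flag-Pinhead RNA, against 5.2 and 4.96 CPM in controls (edgeR adjusted p = 0.0046, lost with DESeq2, without control ectoderm sample 2 and without Flag-Pinhead sample 1, highest adjusted p = 0.0948). None of the 4 ligase rows was called with PhSpMo.

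axin2, the most widely used readout of canonical signalling, was called with PhSpMo and not with Flag-Pinhead RNA. axin2.S had 103 and 115 CPM in Flag-Pinhead ectoderm, against 96 and 99.8 CPM in control ectoderm, a log2 fold change of 0.15 ± 0.06 (SE, edgeR adjusted p = 0.0833). It had 56.7 and 52 CPM with PhSpMo, against 75.9 and 73.6 CPM in control marginal zone, a log2 fold change of -0.46 ± 0.08 (SE, edgeR adjusted p = 0.000172). Whether the 2 treatments differed in size of effect on axin2.S was not tested. nkd1.S, from a gene whose product inhibits Dishevelled, was the only feedback target that fell with Flag-Pinhead RNA, at 8.7 and 8.07 CPM against 10.8 and 12 CPM in control ectoderm. Its log2 fold change was -0.44 ± 0.14 (SE, edgeR adjusted p = 0.0163), and the call was lost with DESeq2, without control ectoderm sample 2 and without Flag-Pinhead sample 2 (highest adjusted p = 0.144). nkd1.L had 3.34 and 4.82 CPM with Flag-Pinhead RNA, against 2.78 and 2.91 CPM in controls, with no call.

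notum encodes an enzyme that strips the lipid from Wnt proteins, and neither of its copies was called in either treatment. notum.L had log2 fold changes of 0.08 ± 0.07 (SE) with Flag-Pinhead RNA and 0.13 ± 0.09 (SE) with PhSpMo, and notum.S of 0.09 ± 0.16 (SE) and -0.35 ± 0.14 (SE) in the same order. apcdd1.L, from the gene of a membrane inhibitor of Wnt signalling, had 25.3 and 28.6 CPM in Flag-Pinhead ectoderm, against 30.8 and 30.6 CPM in control ectoderm, and was likewise not called.

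tcf7l1 encodes the Tcf protein that acts mainly as a repressor in the early frog embryo, and both of its copies fell in Flag-Pinhead ectoderm. tcf7l1.S had 103 and 114 CPM, against 223 and 215 CPM in control ectoderm, 2.02-fold higher in controls (log2 fold change -1.01 ± 0.06 SE, edgeR adjusted p = 4.6e-13). tcf7l1.L had 103 and 115 CPM with Flag-Pinhead RNA, against 175 and 177 CPM in controls (log2 fold change -0.69 ± 0.06 SE, edgeR adjusted p = 1.02e-09). These 2 rows were the only transducers called in ectoderm, and their direction was opposite to that of lef1.L and tcf7.S. With PhSpMo tcf7l1.L had 155 and 157 CPM, against 194 and 186 CPM in control marginal zone, a log2 fold change of -0.28 ± 0.07 (SE, edgeR adjusted p = 0.00495, and 0.0736 without control marginal zone sample 1). tcf7l1.S had 193 and 197 CPM with PhSpMo, against 207 and 222 CPM in controls, with no call. dvl2.L and dvl3.L, which encode Dishevelled proteins that relay the signal from Frizzled, had log2 fold changes of 0.01 ± 0.06 and 0.02 ± 0.06 (SE) with Flag-Pinhead RNA and of 0.18 ± 0.07 and -0.13 ± 0.07 (SE) with PhSpMo. axin1.S had 0.08 ± 0.07 and -0.17 ± 0.08 (SE) in the same order of treatments, and none of these was called.

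The treatments share no control sample, but their calls came from the same fit and rest on a shared estimate of spread. The calls are set side by side here and are not independent of each other. Of the members, 10 rose with Flag-Pinhead RNA and fell with PhSpMo: the 5 ligand rows, fzd10.L, fzd10.S, fzd7.L, frzb.S and lef1.L. They were 50% of the 20 that rose and 62.5% of the 16 that fell. Over all genes tested, 783 had this pair of calls (3.52%), which was 22.8% of those that rose and 33.7% of those that fell. The number of members with this pair of calls was between 8 and 12 in the alternatives. The reverse pair was called in fzd4.L alone (1.68% of all genes), fzd6.L and tcf7l1.L were lower in both (1.81% of all genes), and no member was higher in both (2.13% of all genes).

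**Figure D4:**
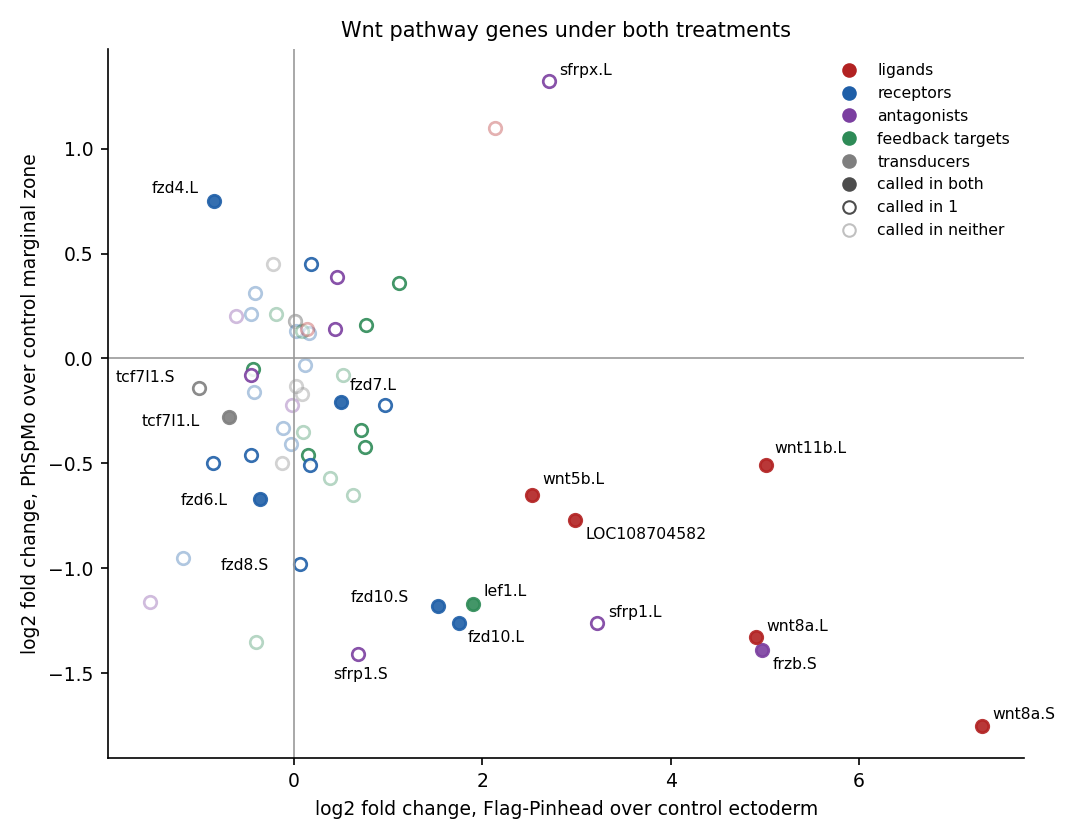
Log2 fold change of 59 tested members with Flag-Pinhead RNA (x axis) and with PhSpMo (y axis), coloured by role, with filled points called in both treatments, open points called in 1 and pale points in neither. The 10 filled points at lower right rose with Flag-Pinhead RNA and fell with PhSpMo. dkk2.L and dkk2.S are left out for want of counts in the marginal zone, and the x values of wnt8a.S and frzb.S are fitted on 2 counts and 1 count in control ectoderm.

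Control marginal zone was also set against control ectoderm, a comparison that shares its samples with both treatments and mixes tissue with the labelled stage. Of the 61 tested members, 26 were higher and 10 lower in control marginal zone, that is 42.6% and 16.4%, where 26.5% of all genes were higher, 26.3% lower and 52.8% called in either direction. By role 5 of 7 ligands, 7 of 20 receptors, 5 of 12 antagonists and 6 of 14 feedback targets were higher, and 0, 3, 3 and 3 were lower. The 5 higher ligand rows were wnt8a.L, wnt8a.S, wnt11b.L, wnt5b.L and LOC108704582. wnt8a.L was 99.2-fold higher in control marginal zone (edgeR adjusted p = 4.08e-22), and wnt11b.L 13.3-fold higher (edgeR adjusted p = 8.1e-18). frzb.S had 1693 counts in control marginal zone and 1 in control ectoderm, a ratio of 2292 with a 95% interval of 411 to 90565. The antagonist median was a log2 fold change of 0.08 over the 12 tested, and 0.47 over 11 without dkk2.S, which had no count in control marginal zone and 3 in control ectoderm.

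Other tissue differences were as follows. fzd7.S was 4.47-fold higher in control marginal zone (edgeR adjusted p = 6.48e-20) and fzd7.L 1.82-fold higher (edgeR adjusted p = 2.91e-13). dkk1.L had 32 counts in control marginal zone and 4 in control ectoderm, a ratio of 10.8 with a 95% interval of 3.84 to 42.1 (edgeR adjusted p = 0.000854). lef1.L was 2.90-fold higher (edgeR adjusted p = 2e-08). nkd1.S and apcdd1.L were higher as well, with log2 fold changes of 1.35 ± 0.12 and 0.92 ± 0.08 (SE). Members lower in control marginal zone were axin2.S, with a log2 fold change of -0.39 ± 0.07 (SE, edgeR adjusted p = 2.34e-05), fzd3.S, fzd8.S, lrp5.L, axin1.S, rnf43.S, both copies of sfrp2, notum.L and dkk2.L. The calls on rnf43.S, sfrp1.S, nkd1.L, dkk1.S, dkk2.L, fzd5.S, fzd8.L, sfrpx.S and tcf7l2.L were each lost in 1 to 4 of the 18 alternatives.

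The L and S copies of a gene did not always move together. Of the 20 members with both copies tested, 10 had copies that differed in fold change with Flag-Pinhead RNA (edgeR test of the difference, adjusted over 4127 pairs), where 16.3% of all pairs did. With PhSpMo 1 pair differed, fzd3, where 7.15% of all pairs did, and between the control tissues 9 pairs differed, where 42.2% did. Reads from near-identical copies may be assigned wrongly, and the genome build behind the counts is not given in the sources used here.

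With Flag-Pinhead RNA, 3 pairs had copies called in opposite directions. These were dkk2 (edgeR adjusted p = 1.47e-05 for the difference), sfrp2 (2.91e-05) and fzd6 (0.00118). The share of all pairs with copies called in opposite directions was not counted in any comparison. The single call on fzd6.L was kept in 14 of 18 alternatives and that on dkk2.S in 17 of 18. Those on dkk2.L, fzd6.S and both sfrp2 copies were kept in all 18. The other pairs that differed were sfrpx (0.000817), fzd7 (0.00532), fzd8 (0.00791), nkd1 (0.0174), tcf7l1 (0.018), fzd3 (0.0211) and sfrp1 (0.0231). The differences called for dkk2, sfrp2, fzd6 and sfrpx held in all 11 alternatives. Those for fzd3, fzd7, fzd8, nkd1, sfrp1 and tcf7l1 were lost without 1 ectoderm library or another (highest adjusted p between 0.0925 and 0.335). The dkk2 difference rests on 0 and 32 counts of dkk2.L and 29 and 3 of dkk2.S, in Flag-Pinhead and control ectoderm. Each dkk2 row, like sfrpx.L and sfrp1.L, could pass the filter through the group in which it was high. The calls for dkk2, sfrpx and sfrp1 thus describe the pairs and are not evidence for them. Between control marginal zone and control ectoderm, the copies of notum and of fzd8 were called in opposite directions. notum.S was 3.50-fold higher in control marginal zone, whereas notum.L was 1.29-fold higher in control ectoderm (edgeR adjusted p = 2.33e-10 for the difference). The log2 fold change was 0.70 ± 0.18 (SE) for fzd8.L and -0.66 ± 0.12 (SE) for fzd8.S (edgeR adjusted p = 2.63e-05 for the difference).

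**Figure D5:**
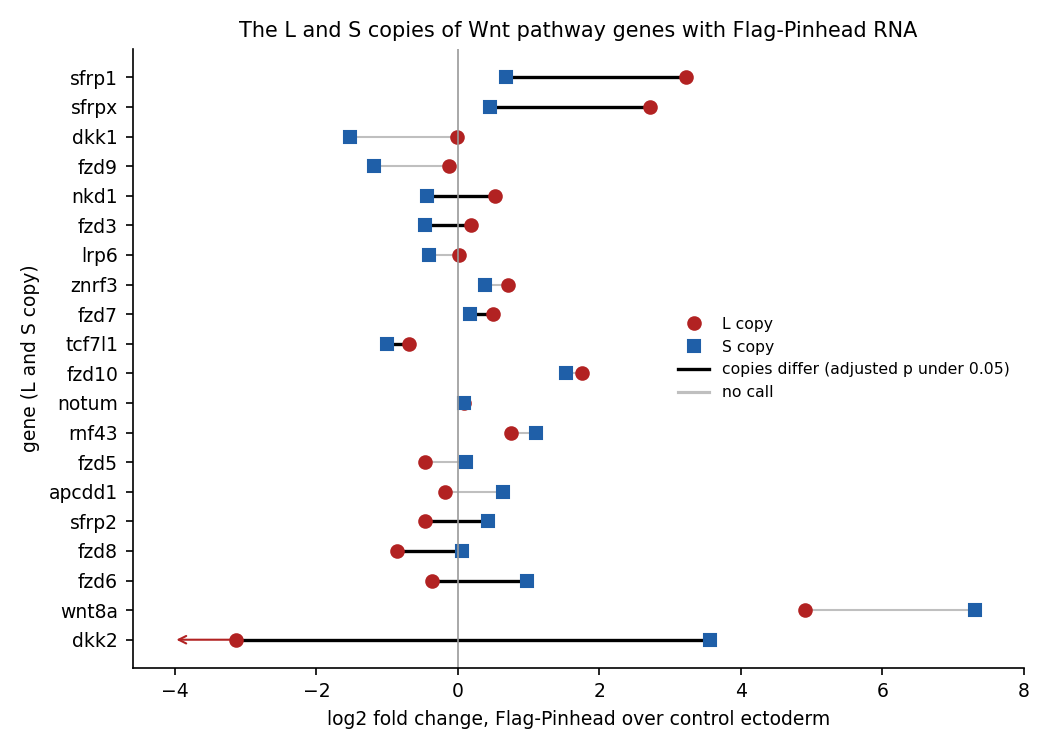
Log2 fold change with Flag-Pinhead RNA over control ectoderm for the L copy (circle) and the S copy (square) of the 20 members with both copies tested. Black lines join the 10 pairs whose copies differed, grey lines the others. dkk2.L had no count with Flag-Pinhead RNA and is drawn at its bound, with an arrow.

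The 5 lists of other pathway genes, read from the same fit, give the setting of these changes. These lists were chosen with earlier results of the data known. For comparison, 15.5% of all genes tested rose and 11.9% fell with Flag-Pinhead RNA, and 8.22% rose and 10.5% fell with PhSpMo. Of 25 tested genes listed as targets of Wnt8a or beta-catenin, 21 rose and 1 fell with Flag-Pinhead RNA, and none rose and 18 fell with PhSpMo. The median log2 fold changes were 1.88 and -1.22, where all genes had 0.00. cdx2.L, from a caudal gene of the posterior axis, had 153 and 96.4 CPM in Flag-Pinhead ectoderm, against 13.2 and 16.7 CPM in control ectoderm (edgeR adjusted p = 2.8e-15). It had 12.6 and 13.3 CPM with PhSpMo, against 58.3 and 57.1 CPM in control marginal zone (edgeR adjusted p = 1.9e-09). sp5l.S, from the gene of an Sp1-like factor, had 226 and 214 CPM with Flag-Pinhead RNA, against 53.2 and 62.7 CPM in control ectoderm (edgeR adjusted p = 5.9e-18). hoxd1.S had 0.323 and 0.638 CPM with PhSpMo, against 5.41 and 5.87 CPM in control marginal zone (edgeR adjusted p = 3.51e-08). In the other direction, bambi.L had 102 and 68.6 CPM in Flag-Pinhead ectoderm, against 167 and 165 CPM in control ectoderm. Several genes of this list are also genes of posterior mesoderm, so its counts do not separate the pathway from the tissue.

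Among 20 tested genes of Wnt secretion and co-reception, 9 rose and 2 fell with Flag-Pinhead RNA, and 1 rose and 5 fell with PhSpMo. ror2, which encodes a receptor tyrosine kinase for Wnt5 ligands, was called in both treatments through both copies. ror2.L had 56 and 41.4 CPM in Flag-Pinhead ectoderm, against 16.3 and 21 CPM in control ectoderm (edgeR adjusted p = 1.96e-09), and 12.9 and 13.5 CPM with PhSpMo, against 24.5 and 28.4 CPM in control marginal zone (edgeR adjusted p = 4.58e-05). kremen2, which encodes a Dickkopf co-receptor, had its lowest p through another copy in each tissue. kremen2.L had 7.03 and 6.73 CPM with Flag-Pinhead RNA, against 0.555 and 0.741 CPM in control ectoderm (edgeR adjusted p = 4.18e-09), and kremen2.S had 0.452 and 0.383 CPM with PhSpMo, against 2.94 and 4.19 CPM in control marginal zone (edgeR adjusted p = 1.31e-05).

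Among 20 tested planar cell polarity genes, 8 rose and 2 fell with Flag-Pinhead RNA, and 3 rose and 5 fell with PhSpMo. prickle1, a core gene of that branch, rose with both treatments, unlike any member of the set. prickle1.S had 216 and 193 CPM in Flag-Pinhead ectoderm, against 24 and 30.8 CPM in control ectoderm (edgeR adjusted p = 1.18e-19), and 177 and 167 CPM with PhSpMo, against 81.8 and 85 CPM in control marginal zone (edgeR adjusted p = 1.19e-09). The intracellular machinery had small median changes. Of 20 tested genes of the destruction complex and beta-catenin, 5 rose and 2 fell in each treatment. The share that rose with PhSpMo was above the 8.22% of all genes tested, and that with Flag-Pinhead RNA above 15.5%. The medians were 0.05 with Flag-Pinhead RNA and -0.01 with PhSpMo. Of 15 nuclear cofactors 1 rose and 2 fell with Flag-Pinhead RNA, and 1 rose and 1 fell with PhSpMo. Over both lists, the call of lowest p in each treatment was bcl9.S, with 146 and 147 CPM in Flag-Pinhead ectoderm against 176 and 185 CPM in control ectoderm (edgeR adjusted p = 0.000151), and frat1.S, with 135 and 130 CPM with PhSpMo against 99.1 and 90.6 CPM in control marginal zone (edgeR adjusted p = 1.72e-05).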

How the data were processed

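Poly(A)-selected RNA of 8 explant samples was sequenced on HiSeq2000 machines, per the labels' protocols, which state no strand marking, so overlapping antisense genes cannot be told apart. HTSeq, HISAT2, SAMtools and CASAVA 1.8 are named in the submitters' processing notes, and no genome build is given in the sources used here. Raw counts per gene were deposited, with no normalization by the authors, in 16 columns, 2 per sample, which were summed. Control marginal zone sample 1 was given 2 columns whose names contain a typing error, because all the other samples had theirs. LOC identifiers were named from RefSeq genes (X. laevis assembly v10.1), which held 21106 of 24441.

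Total counts were 12551618 to 19719311 per sample. The PhSpMo columns were summed to 1 unit, because the 2 PhSpMo samples differed by less (mean chi-square 1.43) than the columns within each of them (2.38 and 2.44). The 7 units, with 3 residual degrees of freedom, were fitted with 1 mean per group in edgeR 4.0.16 (R 4.3.3): filterByExpr, TMM scaling, the quasi-likelihood test and Benjamini-Hochberg adjustment over 22241 genes, with a threshold of 0.05. The SE of a log2 fold change is its absolute value divided by the square root of the F statistic of this test. It rests on the spread shared by all 7 units and not on the compared groups alone. Differences between L and S copies were tested with edgeR's diffSpliceDGE over 4127 pairs. CPM are counts scaled to the TMM-normalized library size. They are not corrected for gene length, so levels were not compared between genes. Intervals on count ratios are exact at 95%. The steps were tested on simulated data. Alternatives were other scalings, DESeq2 1.42.0, no filter, a robust spread, other treatments of the PhSpMo columns, only the groups compared, a replicate block and each library left out; leaving out the pnhd rows was added after seeing the data.

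Members named in the text were those called with the lowest p in each role and comparison, up to 5 per direction, their other copy, every member called in opposite directions by the 2 treatments, and both copies of a set of gastrula genes. The members and lists were chosen with earlier results of these data known.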

Additional observations from a re-analysis of the deposited data

How the results depend on the processing

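No call changed direction in any alternative. The number of members called kept within 1.5 times its value in most alternatives: between 16 and 22 rose and between 5 and 12 fell with Flag-Pinhead RNA, between 12 and 22 fell with PhSpMo, and between 22 and 27 were higher and between 8 and 11 lower in control marginal zone than in control ectoderm, with members that passed the filter only in that alternative included. The 5 that fell with Flag-Pinhead RNA were those called by DESeq2, against 9 by edgeR. The 2 members that rose with PhSpMo were 1 with relative log expression factors, 6 with library totals, 0 with DESeq2, 4 with no filter, 5 with 8 libraries, 6 with only the 2 groups compared, and 0 to 5 with a library left out (0 without control ectoderm sample 2, control marginal zone sample 2 or PhSpMo sample 1, 1 without control ectoderm sample 1 or PhSpMo sample 2, and 5 without either Flag-Pinhead sample). Library totals moved the median of all genes by -0.11 with Flag-Pinhead RNA. Of the calls, 20 of 29 with Flag-Pinhead RNA, 10 of 18 with PhSpMo and 27 of 36 between control tissues held in every alternative.

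Homeolog pairs that differed numbered 5 to 10 with Flag-Pinhead RNA, 0 to 3 with PhSpMo and 4 to 10 between control tissues when a library was left out. There were 5 with Flag-Pinhead RNA without control ectoderm sample 1. Between control tissues there were 5 without control ectoderm sample 1, 4 without control marginal zone sample 1 and 5 without control marginal zone sample 2. Leaving out a PhSpMo sample drops the columns of that name, and which sample each column holds is not certain. With PhSpMo there were none without either control marginal zone sample and 3 without either Flag-Pinhead sample. With 8 libraries, 3 pairs differed with PhSpMo.

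Samples of the same number did not deviate together (correlations -0.0206 in ectoderm and -0.017 in the marginal zone, over 17056 genes). The marginal zone value cannot decide whether the numbers pair samples, because the PhSpMo columns may be crossed. A replicate block gave 21 members that rose and 10 that fell with Flag-Pinhead RNA, 5 that rose and 20 that fell with PhSpMo, and 3 homeolog pairs that differed with PhSpMo. The causes of these differences were not tested. The filter on low counts left 26 of the 87 members, with at most 35 counts in all, out of the main fit.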

Other observations

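The Flag-Pinhead ectoderm samples differed from each other more than those of any other group (a mean chi-square of 11.9 per gene, with 2.27 for control ectoderm). All 5 ligand rows called there were lower in sample 2, which had more of the injected pnhd.L (64563 CPM, against 34439 CPM in sample 1): wnt11b.L had 282 CPM in sample 2 and 415 in sample 1, wnt8a.L 29.2 and 38.7 CPM, wnt8a.S 7.58 and 11.6 CPM, wnt5b.L 67 and 90.2 CPM, and LOC108704582 40 and 56.5 CPM, in the same order. The caudal gene cdx2.L had 96.4 CPM in sample 2 and 153 CPM in sample 1. The mesoderm list was divided: t.L had 116 CPM in sample 2 and 143 CPM in sample 1, whereas vegt.S had 299 and 260 CPM, and the list summed to 732 and 689 CPM. fzd7.L had 852 CPM in sample 2 and 769 CPM in sample 1. The ligand rows include both copies of wnt8a and both rows annotated as wnt5b.L, so they are not 5 independent genes. The share of all genes that were lower in sample 2 was not counted. Each sample is 1 value, and no relation to the dose was tested.

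The S copy of pinhead, pnhd.S, was also higher in Flag-Pinhead ectoderm, at 15.5 and 11.5 CPM against 1.06 and 1.42 CPM in control ectoderm (log2 fold change 3.45 ± 0.20 SE, edgeR adjusted p = 2.11e-13). Reads of the injected RNA that were counted at pnhd.S were not told apart from reads of the gene itself.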
